A study of Arabidopsis thaliana with 60 samples.

Results

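The genes described here are 7 calcium-dependent protein kinase genes of Arabidopsis thaliana linked to immunity: CPK1 (AT5G04870), CPK2 (AT3G10660), CPK4 (AT4G09570), CPK5 (AT4G35310), CPK6 (AT2G17290), CPK11 (AT1G35670) and CPK28 (AT5G66210). They were taken by their identifiers from a table of 25036 genes, and all 7 were in it. Transcript 3′ ends were counted with Smart-3SEQ, which reads 1 short tag near the 3′ end of each captured transcript, in 60 libraries of leaves from a single line in the Col-0 background. Every plant, controls included, carried the mutations dde2, ein2, pad4 and sid2 and the transgene Ed-AvrRpt2, in which estradiol turns on the bacterial effector AvrRpt2. DDE2 (also called AOS) acts in jasmonate synthesis, EIN2 in ethylene signalling, PAD4 in defence regulation and SID2 (also called ICS1) in salicylic acid synthesis, so all values come from plants impaired in 4 sectors of immune signalling.

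Leaves were infiltrated with 1 µM flg22 (a peptide of bacterial flagellin), with 10 µM estradiol in 0.1% ethanol (Ed), with both together in 0.1% ethanol (flg22+Ed), or with 0.1% ethanol alone (Mock). The labels give ethanol for every solution but that of flg22 alone, so flg22 leaves may differ from the others in ethanol as well. Plants were 4 weeks old, and treatment began 3 to 4 h after subjective dawn. Leaves were collected at 60, 120, 180 and 300 min, and each treatment also had leaves labelled 0 min that were untouched. This gave 20 groups of 3 libraries. Each group held 1 library of each of 3 independent experiments, and each library pooled 2 leaves of each of 2 plants. In a bulk leaf sample, fewer cells that express a gene and less RNA of it per cell cannot be told apart.

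Calcium-dependent protein kinases join a kinase domain to a calmodulin-like domain with EF hands, so that a rise in cytosolic calcium, among the earliest events after flagellin or effector perception, is turned into phosphorylation. CPK4, CPK5, CPK6 and CPK11 act in flagellin signalling and phosphorylate WRKY transcription factors. CPK1 and CPK2, together with CPK4 and CPK11, have been linked to phosphorylation of the NADPH oxidases RBOHD and RBOHF when a resistance protein is activated. CPK28 works as a brake: it promotes the turnover of the receptor-associated kinase BIK1 through the ubiquitin ligases PUB25 and PUB26. These kinases are controlled by calcium and phosphorylation as well as by transcript level, and the data bear on transcript level alone.

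On the TAIR10.1 assembly of RefSeq, used here for sequence because the deposited table holds no coordinates, CPK1 lies at chr5:1416564-1420554 on the minus strand with 7 exons and CPK2 at chr3:3331064-3334986 on the minus strand with 7 exons. CPK4 lies at chr4:6049441-6052380 on the plus strand with 7 exons, and CPK11 at chr1:13205345-13208289 on the plus strand with 7 exons. CPK5 lies at chr4:16801605-16805005 and CPK6 at chr2:7516330-7519662, both on the plus strand with 8 exons, and CPK28 at chr5:26456142-26459654 on the minus strand with 12 exons. Among the 21 pairs, the coding sequences were most alike between CPK4 and CPK11 (88.1% identical), CPK5 and CPK6 (86.5%) and CPK1 and CPK2 (84.3%). The next pair, CPK4 and CPK5, was at 69.8%, and the least alike, CPK4 and CPK28, at 56.2%. None of the 30-base words in the last 300 bases of these 7 transcripts was found in genome sequence outside its own gene. For CPK2, 341 of 367 words were found in its own gene, and for CPK28, 425 of 481. For the words missed there the search decides nothing, and spliced transcripts of other genes were not searched. Tags of these near copies that match the found words can be told apart in genome sequence by exact matches of that length.

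The promoter of CPK28 is shown because its range across groups was the widest of the tested genes, and that of CPK11 because its largest change against Mock was the smallest of the 6 tested genes. Each line gives 250 bases before to 50 bases after the annotated transcript start, 5′ to 3′ on the strand of the gene, from RefSeq TAIR10.1. Capitals mark the W-box core that WRKY factors bind, TTGAC, or its reverse complement GTCAA on this strand.
CPK11, chr1:13205095-13205394, plus strand: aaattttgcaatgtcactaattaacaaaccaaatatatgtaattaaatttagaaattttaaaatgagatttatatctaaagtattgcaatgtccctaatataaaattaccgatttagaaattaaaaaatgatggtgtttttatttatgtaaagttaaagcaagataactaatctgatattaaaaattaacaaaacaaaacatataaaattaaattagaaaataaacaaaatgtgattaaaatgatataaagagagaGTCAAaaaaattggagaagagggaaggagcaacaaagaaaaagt
CPK28, chr5:26459605-26459904, minus strand: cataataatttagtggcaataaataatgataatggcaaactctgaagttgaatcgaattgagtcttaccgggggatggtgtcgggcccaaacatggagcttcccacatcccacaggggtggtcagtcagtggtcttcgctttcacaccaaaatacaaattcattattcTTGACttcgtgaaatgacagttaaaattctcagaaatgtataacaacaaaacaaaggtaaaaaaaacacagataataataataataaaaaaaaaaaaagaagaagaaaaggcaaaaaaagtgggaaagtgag
In these windows the core was found 1 time at CPK11 (6 bases after the start, as GTCAA) and 1 time at CPK28 (82 bases before the start, as TTGAC). Of 27443 Arabidopsis promoter windows of the same length, 50.5% held the core on either strand and 17.7% held at least 2. The windows of CPK2 held 2 cores, CPK5 held 1, and CPK1 and CPK6 held 0. The motif CGCGT, part of the sites of calmodulin-binding CAMTA factors, was found at CPK6, 29 bases after the start, and on neither strand in the windows of CPK1, CPK2, CPK5, CPK11 and CPK28, and 8.7% of all windows held it. These matches are descriptions of sequence, not measured binding sites.

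Library totals ranged from 1.46 to 4.67 M counts (median 3.52 M), with 17646 to 19484 genes detected. Levels are given as CPM, the counts of a gene per M (mega) counts of its library after TMM scaling, which balances libraries by a trimmed mean of gene ratios, and 3 counts amounted to 0.603 to 2.20 CPM depending on the library. Because each transcript gives a tag near its 3′ end, levels are compared between samples of 1 gene and not between genes. The deposited table still held counts of the mutated genes. AOS ranged from 4.25 to 48.6 CPM, EIN2 from 5.50 to 24.0 CPM, PAD4 from 0.277 to 290 CPM and ICS1 from 0 to 4.40 CPM, so 3′ tags do not check the genotype. The leaf identity was checked with mesophyll genes (RBCS1A, LHCB1.3, CA1 and RCA), whose summed level lay between 7249 and 34909 CPM in the groups of the later times named below, while the root genes RCI3 and NRT2.1 stayed at or under 1.87 CPM and were at 0 in 45 and 41 of 60 libraries.

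In 12 circadian clock genes, which follow the time of day, 16 of the 24 untouched and Mock libraries were nearest to the others of their own time and 8 were not. Of these 8, 4 were set apart with earlier results of these data known, all of experiment 2, and correlated far better with a time other than that of their label. The correlation of the library labelled Mock 0 min with others of its label was 0.042, against 0.732 with those of Mock 60 min, and that of the library labelled Mock 60 min was 0.170 with its own and 0.976 with the untouched ones. For the library labelled Mock 300 min it was -0.950 with its own label and 0.960 with the untouched ones, and for the library labelled flg22 0 min -0.969 with its own and 0.969 with Mock 300 min. The morning gene LHY was at 316 CPM in this experiment under the label Mock 300 min, and at 3.07 and 1.53 CPM under that label in experiments 1 and 3. The other 4 (Mock 120 min of experiments 1 and 3, Mock 180 min of experiments 1 and 2) were nearest to an adjacent time. Of them the library labelled Mock 120 min of experiment 3 correlated as poorly with its own time (0.0417), but at 0.244 with its nearest. Labels were kept as given. For the tested kinase genes, counts of calls are given with and without the first 4, as are the single values whose call they change among those described. Calls and values of the other CPK genes, of substrates and partners and of leaf cell markers are given with all libraries alone. The part of the first 4 in them is not given.

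Differences are log2 fold changes of group means of 3 libraries with their standard error (SE), from edgeR's quasi-likelihood F test fitted on 16763 genes and all 20 groups. In each comparison the Benjamini-Hochberg procedure was applied over those genes, and every adjusted p printed below belongs to this test unless another tool is named. A gene is said to rise or fall where its adjusted p is under 0.05. CPK2 did not pass the filter on low counts and was not tested, so 6 of the 7 genes were tested. The sums over all 60 libraries were 13367 counts for CPK1, 176 for CPK2, 4476 for CPK4, 14006 for CPK5, 8110 for CPK6, 2905 for CPK11 and 18799 for CPK28, so CPK2 has the least support.

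**Figure D1:**
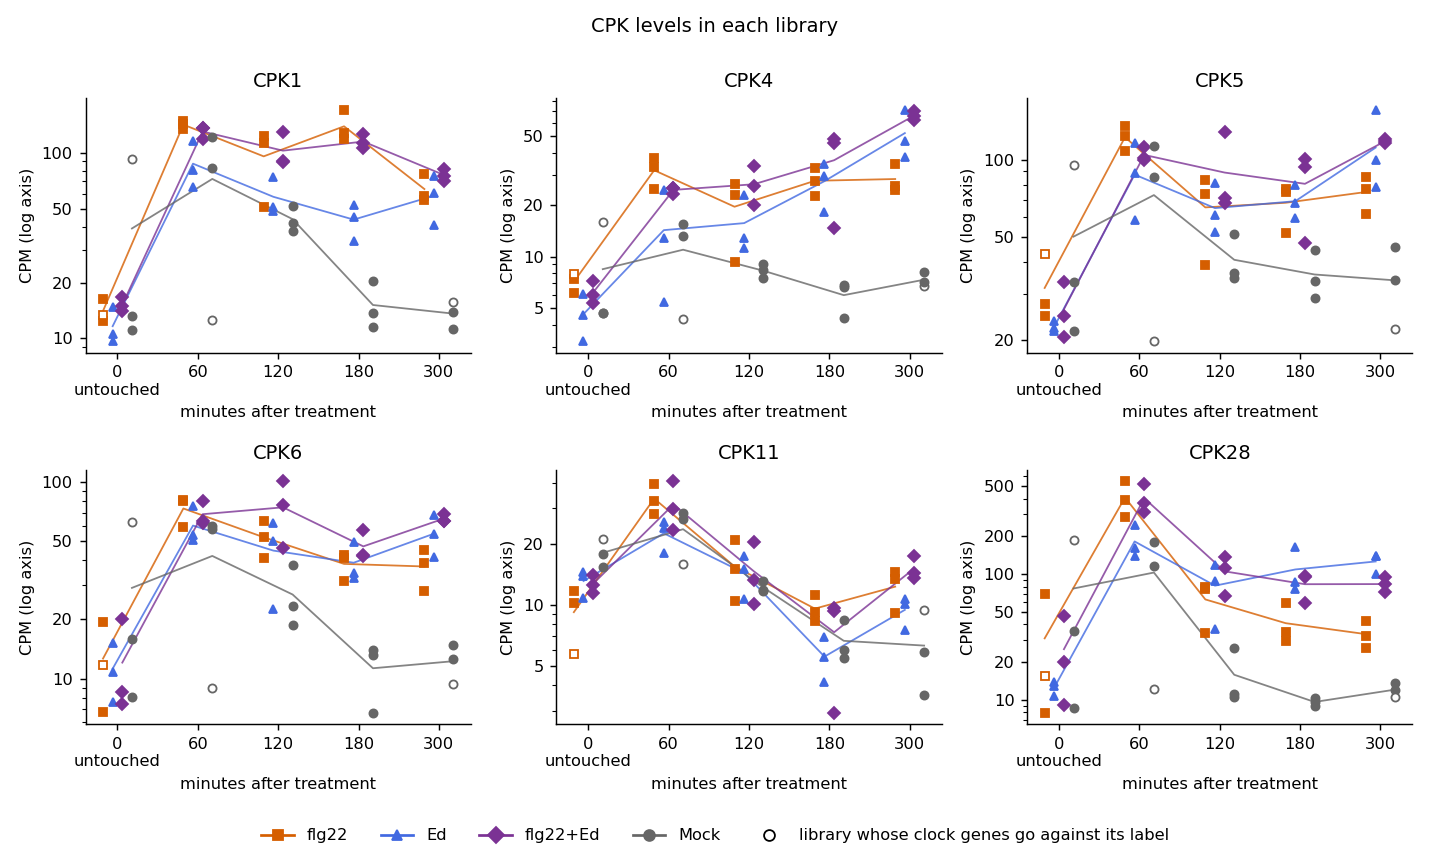
Levels of the 6 tested kinase genes in CPM on a log axis against time after treatment in minutes, with 1 point per library and lines through the means of 3 libraries, for flg22, Ed, flg22+Ed and Mock. Open symbols mark the 4 libraries that stood apart in clock genes. At 300 min all 3 treatments lay above Mock for CPK1, CPK4, CPK5, CPK6 and CPK28, while at 60 min Mock leaves of CPK28 spread between 12.2 and 180 CPM.

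The first comparison asked what flg22, a trigger of pattern-triggered immunity, did to these genes relative to Mock. At 180 min CPK1, CPK4, CPK6 and CPK28 rose, and at 300 min CPK1, CPK4, CPK5, CPK6 and CPK11 rose. CPK1 had the largest change of the 6, 8.98-fold at 180 min. No member fell.

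CPK1 stood at 127, 170 and 118 CPM in flg22 leaves at 180 min, against 13.6, 20.3 and 11.5 CPM in Mock leaves (experiments 1, 2 and 3, as in all such lists). The groups did not overlap, and the difference was near-equal in the 3 experiments, with a log2 change of 3.17 ± 0.50 (SE) and adjusted p = 4.05e-06. At 300 min CPK1 had 58.2, 76.9 and 55.8 CPM in flg22 leaves, against 13.9, 15.6 and 11.2 CPM in Mock leaves, a log2 change of 2.21 ± 0.49 with adjusted p = 0.000332. CPK1 thus remained called at both later times, also with each single library left out. At 60 min it averaged 141 ± 6.58 CPM in flg22 leaves and 72.1 ± 55.1 CPM in Mock leaves (SD, n = 3 each), and the log2 change of 0.97 did not pass (adjusted p = 0.181). The library labelled Mock 60 min of experiment 2 had 12.6 CPM, against 82.7 and 121 CPM in the other Mock libraries, and without the 4 libraries the log2 change at 60 min was 0.49 with adjusted p = 0.402.

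CPK4, which with CPK11 also takes part in abscisic acid signalling, was the member that rose at the earliest time. It had 33.4, 24.7 and 37.3 CPM in flg22 leaves at 60 min, against 13.2, 4.31 and 15.4 CPM in Mock leaves, a log2 change of 1.53 ± 0.43 with adjusted p = 0.0161. The groups did not overlap, but the call rests on the lowest Mock value, which is from a library that stood apart: without the 4 libraries the log2 change was 1.16 with adjusted p = 0.098. The call was also lost without the flg22 library of experiment 1 or 3. At 180 min CPK4 had 32.9, 27.4 and 22.5 CPM in flg22 leaves, against 6.70, 6.83 and 4.37 CPM in Mock leaves, a log2 change of 2.16 ± 0.44 with adjusted p = 0.000217. At 300 min it averaged 28.3 ± 5.48 CPM in flg22 leaves and 7.34 ± 0.674 CPM in Mock leaves (SD, n = 3 each), a log2 change of 1.94 ± 0.43 with adjusted p = 0.000389. These later calls held with any single library left out. At 120 min CPK4 had 26.4, 22.9 and 9.30 CPM in flg22 leaves, against 9.01, 7.48 and 8.34 CPM in Mock leaves, and its log2 change of 1.25 missed the threshold (adjusted p = 0.0549). It passed with the experiment as a block (0.0481) and without the 4 libraries (0.0171).

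CPK5 and CPK6, close copies that act together with CPK4 and CPK11 in flagellin signalling, rose less. CPK6 had 31.5, 41.2 and 42.4 CPM in flg22 leaves at 180 min, against 6.70, 14.1 and 13.1 CPM in Mock leaves, a log2 change of 1.77 ± 0.51 with adjusted p = 0.009. At 300 min CPK6 averaged 37.2 ± 8.73 CPM in flg22 leaves and 12.3 ± 2.70 CPM in Mock leaves (SD, n = 3 each), a log2 change of 1.61 ± 0.51 with adjusted p = 0.00987. The groups did not overlap at either time, although the call at 180 min was lost without the Mock library of experiment 1 and that at 300 min without the library labelled Mock of experiment 2. CPK5 averaged 74.9 ± 12.2 CPM in flg22 leaves and 34.0 ± 11.8 CPM in Mock leaves at 300 min (SD, n = 3 each), without overlap, a log2 change of 1.14 ± 0.41 with adjusted p = 0.0238, which was lost without the Mock or the flg22 library of experiment 2 or 3. At 180 min CPK5 averaged 68.0 ± 13.9 CPM in flg22 leaves and 35.9 ± 7.98 CPM in Mock leaves (SD, n = 3 each), and the log2 change of 0.92 had adjusted p = 0.0999, or 0.00942 without the 4 libraries.

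CPK28, the brake on BIK1, had its highest level of all 20 groups in flg22 leaves at 60 min: 390, 286 and 548 CPM, against 118, 12.2 and 180 CPM in Mock leaves. These groups did not overlap, yet the log2 change of 1.98 ± 0.67 narrowly missed the threshold (adjusted p = 0.0511). It passed when the experiment was added as a block (adjusted p = 0.0393), and had adjusted p = 0.134 without the 4 libraries, as the Mock mean then no longer held the value of 12.2 CPM. At 120 min CPK28 had 76.8, 78.7 and 34.1 CPM in flg22 leaves, against 10.6, 11.1 and 26.1 CPM in Mock leaves, with a log2 change of 2.03 ± 0.71 and adjusted p = 0.0557. That p was 0.0055 without the 4 libraries and 0.0376 with the experiment as a block. At 180 min it had 34.6, 58.7 and 29.5 CPM in flg22 leaves, against 9.01, 9.64 and 10.4 CPM in Mock leaves. This log2 change of 2.09 ± 0.72 passed (adjusted p = 0.0306), and was lost without any of the 3 Mock libraries or without the flg22 library of experiment 2. At 300 min it averaged 33.5 ± 8.26 CPM in flg22 leaves and 12.1 ± 1.60 CPM in Mock leaves (SD, n = 3 each), a log2 change of 1.47 with an interval of 0.05 to 2.90 (95%) and adjusted p = 0.093.

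CPK11 differed from its closest relative CPK4. It had 9.06, 14.4 and 13.3 CPM in flg22 leaves at 300 min, against 5.86, 9.43 and 3.58 CPM in Mock leaves, and rose by 0.91 on the log2 scale (adjusted p = 0.0204). The groups overlapped, and the call was lost without the Mock library of experiment 1 or 3 or the flg22 library of experiment 2 or 3. At 180 min its log2 change was 0.49 (adjusted p = 0.281), where that of CPK4 was 2.16. The difference between these genes was not tested.

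CPK2 stayed near the limit of counting. Its highest library was Ed at 300 min of experiment 1 with 5.89 CPM, against 0.52 and 1.16 CPM in the other Ed libraries of that time. In flg22+Ed leaves at 300 min it had 2.34, 1.16 and 2.95 CPM, against 0.837, 0 and 0.511 CPM in Mock leaves. At this depth no difference can be read from these values.

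Counted over the 6 tested genes, flg22 raised 1, 0, 4 and 5 of them at 60, 120, 180 and 300 min. Among all 16763 genes, 6.45%, 7.43%, 14.0% and 19.2% were called higher at these times. The members' share was 66.7% at 180 min and 83.3% at 300 min, and that of the other tested CPK genes 62.5% at both. The members were chosen with earlier results of these data known, so their share is a description and not a test for an excess. The median log2 change of the 6 was 0.89, 1.06, 1.93 and 1.54, against -0.07, -0.04, -0.06 and -0.05 over all genes. At 120 min, where edgeR called 0 of 6, 4 had an unadjusted p under 0.05, DESeq2 called 2, and limma-voom 0. With the 4 libraries left out edgeR called 0, 4, 5 and 5 at the 4 times. In that fit 830, 2779, 4838 and 6761 of all genes tested were called in either direction, and no member fell. The fit was filtered anew, and the number of genes it tested is not given, here or for the other comparisons. These counts therefore give no share. With a whole experiment left out, 4 of the 10 calls were lost without experiment 1, 3 without experiment 2 (CPK4 at 60 min, CPK28 at 180 min, CPK5 at 300 min) and 5 without experiment 3, among them both of CPK6. The flg22 library of experiment 3 at 120 min was lower than those of experiments 1 and 2 for CPK1 (51.1 against 113 and 122 CPM), CPK4 (9.30 against 26.4 and 22.9 CPM) and CPK28 (34.1 against 76.8 and 78.7 CPM).

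**Figure D2:**
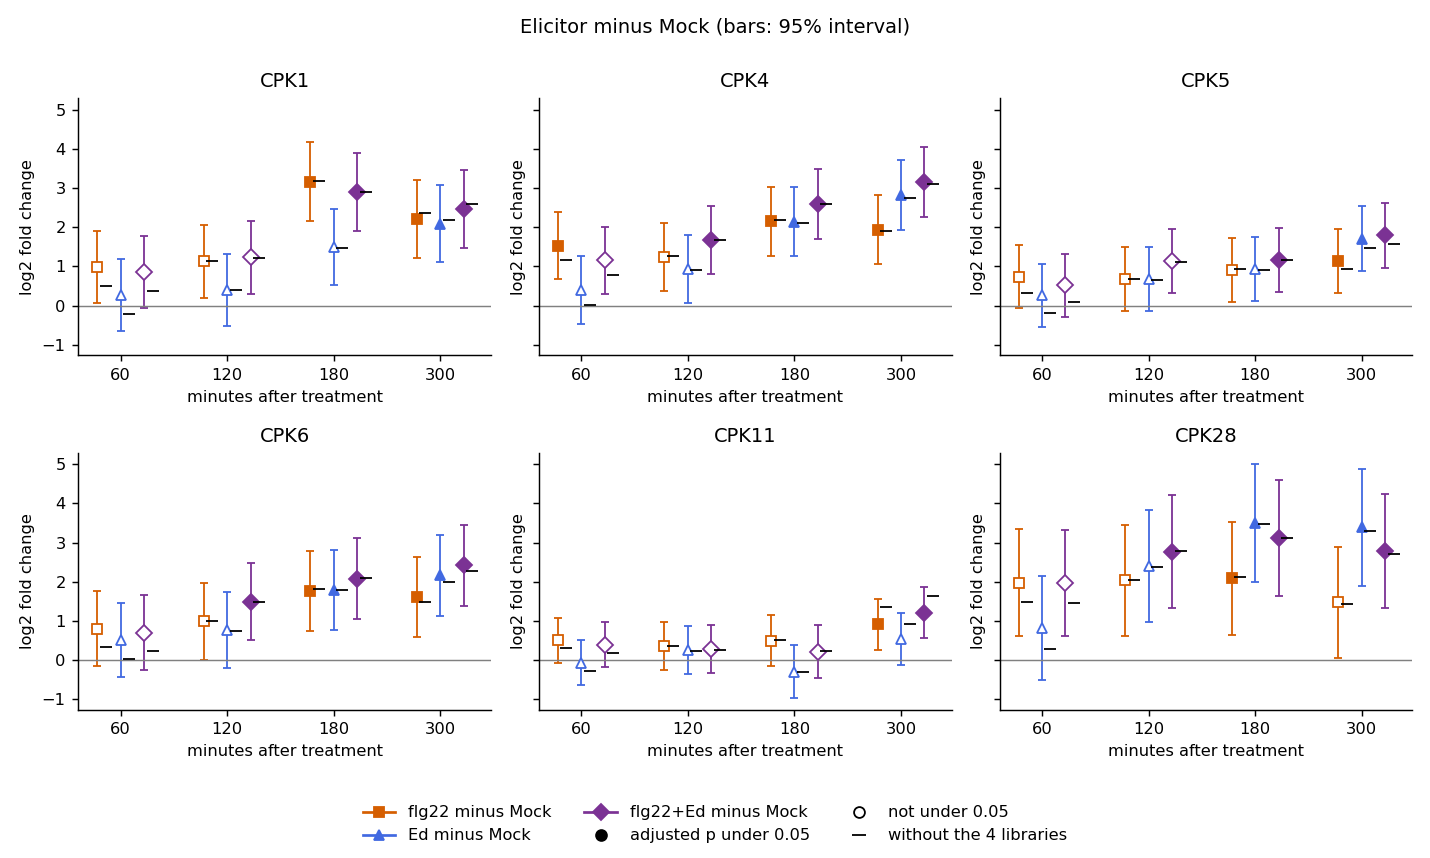
Log2 fold changes against Mock with 95% intervals for the 6 tested genes at 60, 120, 180 and 300 min, for flg22, Ed and flg22+Ed, with filled symbols where the adjusted p was under 0.05 and a dash at the value without the 4 libraries that stood apart. For Ed the calls begin at 180 min with CPK4, CPK6 and CPK28, and CPK28 reaches 3.50; for flg22+Ed the calls begin at 120 min.

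The second comparison asked what estradiol-induced AvrRpt2, a trigger of effector-triggered immunity through the resistance protein RPS2, did relative to Mock. Up to 120 min no member passed. CPK4, CPK6 and CPK28 rose at 180 min and CPK1, CPK4, CPK5, CPK6 and CPK28 at 300 min. The largest change was that of CPK28, 11.3-fold at 180 min and 10.5-fold at 300 min.

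CPK28 had 164, 87.3 and 76.6 CPM in Ed leaves at 180 min, against 9.01, 9.64 and 10.4 CPM in Mock leaves, a log2 change of 3.50 ± 0.74 with adjusted p = 0.00154. At 300 min it had 139, 141 and 99.9 CPM in Ed leaves, against 12.0, 10.6 and 13.8 CPM in Mock leaves, a log2 change of 3.39 ± 0.74 with adjusted p = 0.000512. Every Ed library was several times above every Mock library at both times, and both calls held with any single library left out. Without the whole of experiment 1 the call at 180 min was lost. At 120 min it had 88.4, 36.7 and 119 CPM in Ed leaves, against 10.6, 11.1 and 26.1 CPM in Mock leaves. The groups did not overlap there either, but the log2 change of 2.40 ± 0.71 had adjusted p = 0.308, or 0.0485 without the 4 libraries, in a comparison in which few genes passed at all.

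CPK4 had 34.7, 29.5 and 18.2 CPM in Ed leaves at 180 min, against 6.70, 6.83 and 4.37 CPM in Mock leaves, a log2 change of 2.15 ± 0.44 with adjusted p = 0.000945. At 300 min it had 71.5, 47.3 and 38.0 CPM in Ed leaves, against 8.09, 6.78 and 7.15 CPM in Mock leaves, a log2 change of 2.82 ± 0.44 (7.07-fold) with adjusted p = 3.73e-06. No Ed library overlapped with Mock at either time. CPK11 showed no such change: it had 6.95, 4.18 and 5.52 CPM in Ed leaves at 180 min, against 6.01, 8.44 and 5.47 CPM in Mock leaves. At 300 min it averaged 9.43 ± 1.66 CPM in Ed leaves and 6.29 ± 2.95 CPM in Mock leaves (SD, n = 3 each), a log2 change of 0.54 with a 95% interval of -0.12 to 1.20 and adjusted p = 0.242.

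CPK1 had 74.5, 60.6 and 40.6 CPM in Ed leaves at 300 min, against 13.9, 15.6 and 11.2 CPM in Mock leaves, a log2 change of 2.09 ± 0.49 with adjusted p = 0.00116. At 180 min it had 52.0, 45.2 and 33.6 CPM in Ed leaves, against 13.6, 20.3 and 11.5 CPM in Mock leaves. The groups did not overlap, and the log2 change of 1.50 ± 0.48 had adjusted p = 0.0675, or 0.000121 without the 4 libraries. CPK5 averaged 111 ± 40.2 CPM in Ed leaves and 34.0 ± 11.8 CPM in Mock leaves at 300 min (SD, n = 3 each), a log2 change of 1.71 ± 0.41 with adjusted p = 0.00169. CPK6 averaged 54.7 ± 13.3 CPM in Ed leaves and 12.3 ± 2.70 CPM in Mock leaves at 300 min (SD, n = 3 each), a log2 change of 2.17 ± 0.51 with adjusted p = 0.0013. Its rise at 180 min, 1.79 ± 0.51 with adjusted p = 0.028, was lost without any of the 3 Mock libraries or the Ed library of experiment 1.

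In all, Ed raised 0, 0, 3 and 5 of the 6 at 60, 120, 180 and 300 min, against 0.00597%, 0.0835%, 4.03% and 14.7% of all genes called higher. The members' median log2 change was 0.34, 0.72, 1.65 and 2.13, against 0.04, 0, -0.04 and -0.08 over all genes. Of the counts of 0 from edgeR, at 60 min 0 of 6 had an unadjusted p under 0.05 and DESeq2 and limma-voom also called 0. At 120 min 2 had an unadjusted p under 0.05, and DESeq2 and limma-voom called 0. In the fit without the 4 libraries edgeR called 0, 1, 5 and 5, and 1, 21, 868 and 3669 of all genes tested in either direction. Without the whole of experiment 1, 2 of the 8 Ed calls were left, those of CPK4 and CPK28 at 300 min, and CPK4 and CPK6 at 180 min and CPK1, CPK5 and CPK6 at 300 min were lost besides CPK28 at 180 min.

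The third comparison set leaves given flg22 and Ed together against Mock. CPK4, CPK6 and CPK28 rose from 120 min, CPK1 and CPK5 joined at 180 min, and all 6 tested genes were higher at 300 min.

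CPK28 had 311, 525 and 371 CPM in flg22+Ed leaves at 60 min, against 118, 12.2 and 180 CPM in Mock leaves, and its log2 change of 1.96 did not pass (adjusted p = 0.0658, or 0.0459 with the experiment as a block). It had 113, 67.9 and 136 CPM in flg22+Ed leaves at 120 min, against 10.6, 11.1 and 26.1 CPM in Mock leaves, a log2 change of 2.77 ± 0.72 with adjusted p = 0.00594, which was lost without the Mock library of experiment 1 or 2. It averaged 83.5 ± 20.9 CPM in flg22+Ed leaves and 9.68 ± 0.688 CPM in Mock leaves at 180 min (SD, n = 3 each), a log2 change of 3.12 ± 0.74 with adjusted p = 0.000951. At 300 min it averaged 83.7 ± 11.6 CPM in flg22+Ed leaves and 12.1 ± 1.60 CPM in Mock leaves (SD, n = 3 each), a log2 change of 2.79 ± 0.72 with adjusted p = 0.00102. The libraries of the groups did not overlap at any of these times.

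CPK4 reached its highest level here. It had 62.1, 70.7 and 65.8 CPM in flg22+Ed leaves at 300 min, against 8.09, 6.78 and 7.15 CPM in Mock leaves, a log2 change of 3.16 ± 0.44 (8.95-fold) with adjusted p = 6.21e-08. At 180 min it had 46.0, 14.7 and 48.4 CPM in flg22+Ed leaves, against 6.70, 6.83 and 4.37 CPM in Mock leaves, and the library of experiment 2 was well below the other two (log2 change 2.59 ± 0.44, adjusted p = 9.76e-06). The same flg22+Ed library was low for CPK5, which had 101, 47.7 and 93.3 CPM, and for CPK11, which had 9.67, 2.93 and 9.35 CPM, but not for CPK1, which had 106, 113 and 125 CPM. At 120 min CPK4 averaged 26.3 CPM in flg22+Ed leaves and 8.28 CPM in Mock leaves, a log2 change of 1.67 ± 0.43 with adjusted p = 0.00557, which was lost without the flg22+Ed library of experiment 3.

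At 120 min CPK1 and CPK5 missed the threshold, with log2 changes of 1.23 (adjusted p = 0.0643, or 0.000383 without the 4 libraries) and 1.13 (adjusted p = 0.0525, or 0.00307 without them). CPK1 rose by 2.90 ± 0.49 on the log2 scale at 180 min (adjusted p = 1.11e-05) and by 2.46 ± 0.49 at 300 min (adjusted p = 3.82e-05), and averaged 75.9 ± 5.71 CPM in flg22+Ed leaves and 13.6 ± 2.21 CPM in Mock leaves at 300 min (SD, n = 3 each). CPK5 averaged 118 ± 2.33 CPM in flg22+Ed leaves and 34.0 ± 11.8 CPM in Mock leaves at 300 min (SD, n = 3 each), a log2 change of 1.79 ± 0.41 with adjusted p = 0.000272. Its rise at 180 min, 1.17 ± 0.41 with adjusted p = 0.024, was lost without the Mock or the flg22+Ed library of experiment 1 or 3. CPK6 had 46.2, 76.2 and 101 CPM in flg22+Ed leaves at 120 min, against 18.8, 23.5 and 38.1 CPM in Mock leaves (log2 change 1.49 ± 0.49, adjusted p = 0.0304). That call was lost without the Mock library of experiment 1 or 2 or the flg22+Ed library of experiment 2 or 3, while the later rises of CPK6, 2.08 at 180 min and 2.42 at 300 min, held with any single library left out. CPK11 had 13.6, 14.3 and 17.5 CPM in flg22+Ed leaves at 300 min, against 5.86, 9.43 and 3.58 CPM in Mock leaves, a log2 change of 1.21 ± 0.32 (2.32-fold) with adjusted p = 0.0012. These groups did not overlap, unlike those under flg22 alone.

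The flg22+Ed treatment raised 0, 3, 5 and 6 of the 6 at 60, 120, 180 and 300 min, against 4.75%, 9.97%, 18.0% and 27.9% of all genes called higher. The members' median log2 change was 0.78, 1.36, 2.33 and 2.44, against -0.06, -0.03, -0.06 and -0.08 over all genes. At 60 min, where edgeR called 0, 2 had an unadjusted p under 0.05, and DESeq2 and limma-voom called 1 each. With the 4 libraries left out edgeR called 0, 5, 5 and 6, and 496, 3800, 6579 and 9978 of all genes tested in either direction. Of the 14 calls, 4 were lost without experiment 1 (CPK4, CPK6 and CPK28 at 120 min, CPK5 at 180 min), 1 without experiment 2 (CPK6 at 120 min) and 4 without experiment 3, among them CPK11 at 300 min. The 3 comparisons share their Mock libraries, so their counts are not independent of each other.

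Leaf cell markers moved at the same times. The summed level of the 4 mesophyll genes was 14858 to 22050 CPM in flg22 leaves, 22866 to 25381 CPM in Ed leaves and 7249 to 10923 CPM in flg22+Ed leaves at 300 min, against 32146 to 34589 CPM in Mock leaves. All 4 genes fell under flg22 and under flg22+Ed and 2 of 4 under Ed. Among all genes tested, 20.9% fell under flg22, 9.46% under Ed and 30.5% under flg22+Ed at 300 min. The sum of 3 epidermal genes was 234 to 282 CPM in flg22 leaves, 105 to 183 CPM in Ed leaves and 140 to 177 CPM in flg22+Ed leaves at 300 min, against 243 to 395 CPM in Mock leaves, with 1, 2 and 2 of 3 genes lower. At 120 min it was 404 to 516 CPM in flg22 leaves and 407 to 497 CPM in flg22+Ed leaves, against 223 to 356 CPM in Mock leaves, and FDH rose (0.96 and 0.93, adjusted p = 0.00357 and 0.00361). At 300 min the sum of 2 phloem genes was 182 to 236 CPM in flg22 leaves, 202 to 295 CPM in Ed leaves and 221 to 259 CPM in flg22+Ed leaves. In Mock leaves it was 212 to 300 CPM. The sum of 5 guard cell genes was 21.9 to 37.8 CPM in flg22 leaves, 28.9 to 35.1 CPM in Ed leaves and 21.6 to 27.8 CPM in flg22+Ed leaves. In Mock leaves it was 31.7 to 58.9 CPM. Of these genes HT1 rose under flg22 (1.75, adjusted p = 0.0305) and SLAC1 fell under flg22+Ed (-1.74, adjusted p = 0.0408). At 180 min mesophyll sums overlapped, with 20770 to 27843 CPM in flg22 leaves, 23376 to 29455 CPM in Ed leaves and 18204 to 27724 CPM in flg22+Ed leaves, against 25227 to 34909 CPM in Mock leaves. Of the 4 genes RCA fell under flg22 (-0.73, adjusted p = 0.0447) and RCA (-0.89, adjusted p = 0.00881) and LHCB1.3 (-0.47, adjusted p = 0.0342) under flg22+Ed at 180 min. Among all genes tested, 8.17% fell under flg22 and 14.5% under flg22+Ed at 180 min. The part of the marker shifts in the kinase changes was not tested.

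**Figure D3:**
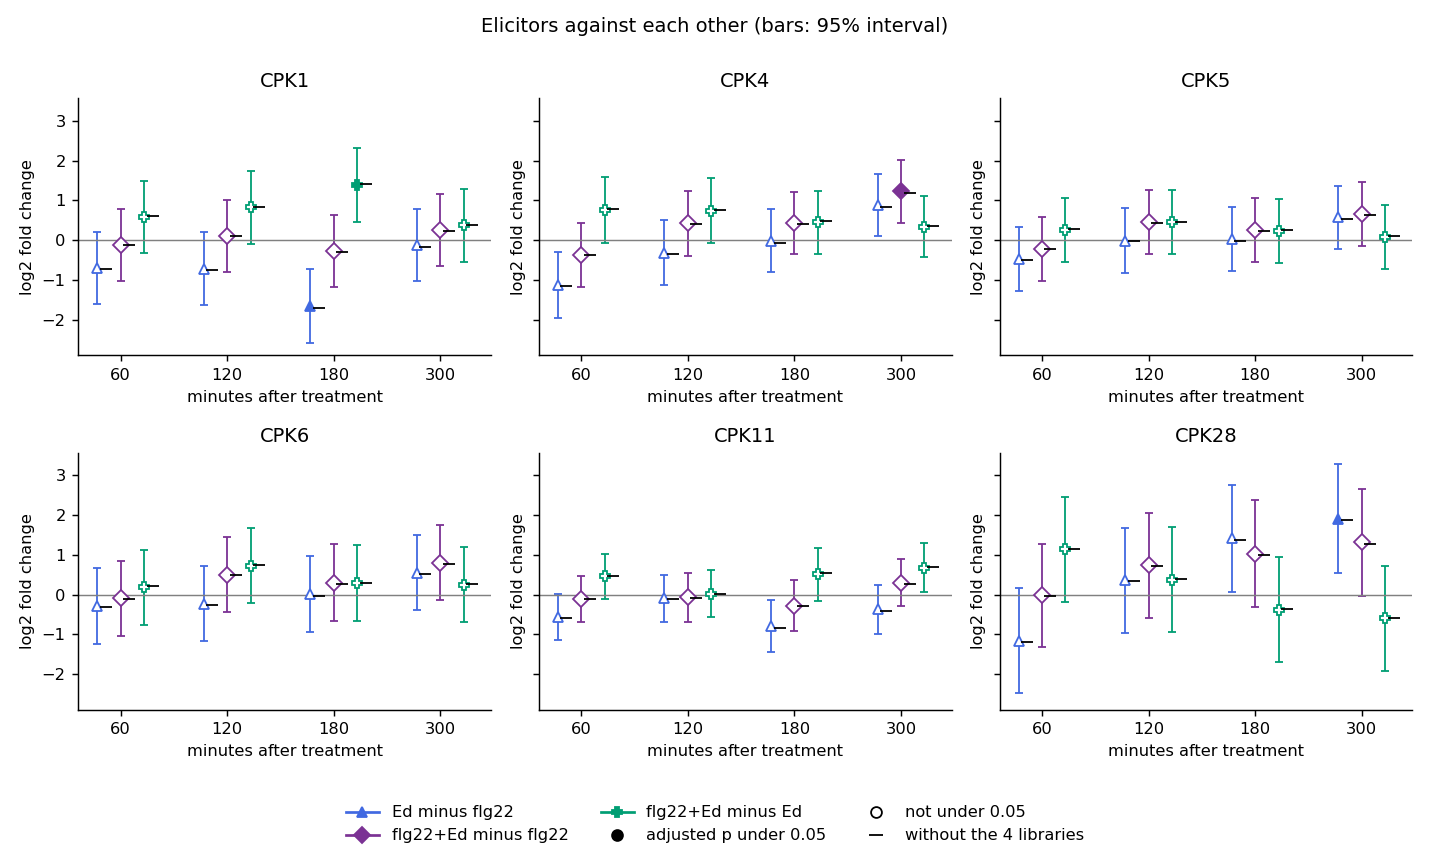
Log2 fold changes with 95% intervals between elicitors (Ed minus flg22, flg22+Ed minus flg22 and flg22+Ed minus Ed) for the 6 tested genes at 60, 120, 180 and 300 min, with filled symbols where the adjusted p was under 0.05 and a dash at the value without the 4 libraries that stood apart. Of 72 values 4 were called: CPK1 at 180 min in 2 comparisons, CPK4 at 300 min and CPK28 at 300 min.

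Set directly against each other, the elicitors differed for CPK1 and CPK28, in opposite directions. At 180 min CPK1 had 52.0, 45.2 and 33.6 CPM in Ed leaves, against 127, 170 and 118 CPM in flg22 leaves. It fell by 1.67 on the log2 scale (95% interval -2.60 to -0.74, adjusted p = 0.0131), and the call was lost without the flg22 library of experiment 2 or the Ed library of experiment 3. At 300 min CPK28 had 139, 141 and 99.9 CPM in Ed leaves, against 42.3, 32.3 and 25.9 CPM in flg22 leaves. It was higher by 1.92 ± 0.68 (95% interval 0.55 to 3.28, adjusted p = 0.0427), and although the groups did not overlap, the call was lost when any 1 of the 6 libraries was left out.

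The other members did not pass between Ed and flg22. CPK4 at 300 min had 71.5, 47.3 and 38.0 CPM in Ed leaves, against 25.7, 34.6 and 24.6 CPM in flg22 leaves, a log2 difference of 0.89 with adjusted p = 0.112. At 60 min its order was the other way, with 12.8, 5.48 and 24.5 CPM in Ed leaves, against 33.4, 24.7 and 37.3 CPM in flg22 leaves, a log2 difference of -1.13 with adjusted p = 0.139 (0.0411 without the 4 libraries). Of the 6 members, edgeR called 0, 0, 1 and 1 at 60, 120, 180 and 300 min, against 3.17%, 7.33%, 9.65% and 17.4% of all genes called in either direction, so the members differed about as often as the background. At 60 min 1 member had an unadjusted p under 0.05 and at 120 min 0, and DESeq2 and limma-voom called 0 at both times. In the fit without the 4 libraries edgeR called 1, 1, 2 and 1, and 1045, 2114, 2515 and 4086 of all genes tested.

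Adding Ed to flg22 raised CPK4 at 300 min: it had 62.1, 70.7 and 65.8 CPM in flg22+Ed leaves, against 25.7, 34.6 and 24.6 CPM in flg22 leaves. The log2 difference was 1.23 ± 0.39 (95% interval 0.44 to 2.01, adjusted p = 0.0272), and was lost without the flg22 library of experiment 1 or 3 or the flg22+Ed library of experiment 2 or 3. CPK28 at 300 min had 72.0, 95.1 and 84.1 CPM in flg22+Ed leaves, against 42.3, 32.3 and 25.9 CPM in flg22 leaves. The groups did not overlap, and the log2 difference of 1.32 had an interval of -0.03 to 2.66 and adjusted p = 0.191. For CPK1 at 300 min the log2 difference was 0.25 and was not called. The counts were 0, 0, 0 and 1 of 6 at 60, 120, 180 and 300 min, against 0%, 0.00597%, 0.483% and 14.0% of all genes. At the 3 earlier times no member had an unadjusted p under 0.05, and DESeq2 and limma-voom called 0. The counts of members without the 4 libraries were the same, and 0, 1, 108 and 3545 of all genes tested were then called.

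Adding flg22 to Ed raised CPK1 at 180 min, with 106, 113 and 125 CPM in flg22+Ed leaves, against 52.0, 45.2 and 33.6 CPM in Ed leaves. The log2 difference was 1.40 ± 0.46 (95% interval 0.47 to 2.33, adjusted p = 0.0327), and was lost without the Ed or the flg22+Ed library of experiment 2 or 3. CPK11 at 300 min had 13.6, 14.3 and 17.5 CPM in flg22+Ed leaves, against 10.1, 10.7 and 7.55 CPM in Ed leaves, a log2 difference of 0.68 with adjusted p = 0.0816 (0.0359 without the 4 libraries). CPK28 lay lower, with 72.0, 95.1 and 84.1 CPM in flg22+Ed leaves at 300 min, against 139, 141 and 99.9 CPM in Ed leaves, and the log2 difference of -0.60 was not called. The counts were 0, 0, 1 and 0 of 6, against 1.77%, 7.23%, 15.3% and 33.5% of all genes. At 60, 120 and 300 min 0, 0 and 1 members had an unadjusted p under 0.05, and DESeq2 and limma-voom called 0. Without the 4 libraries edgeR called 0, 1, 1 and 1, with CPK1 at 120 min added (0.83, adjusted p = 0.0189). In that fit 705, 2167, 3800 and 6815 of all genes tested were called.

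The interaction asks whether the effect of both elicitors differed from the sum of the single effects on the log2 scale. edgeR, DESeq2 and limma-voom called 0 of 6 at every time, and edgeR called 0%, 0%, 0.00597% and 1.51% of all genes. At the looser threshold of an unadjusted p under 0.05 the members numbered 0, 0, 4 and 3. The share of all genes at that threshold, or called by DESeq2 or limma-voom, is not given, here or for the other comparisons. Such counts of members have no background beside them and are descriptions alone. Without the 4 libraries edgeR called 0, 0, 1 and 1 of the 6, and 0, 0, 53 and 241 of all genes tested. At 180 and 300 min the estimates were below 0 except that of CPK11 at 180 min (0.02). For CPK1 the interaction was -1.77 ± 0.66 at 180 min (95% interval -3.09 to -0.45, adjusted p = 0.721) and -1.84 ± 0.66 at 300 min (adjusted p = 0.183). Without the 4 libraries these were -1.78 with adjusted p = 0.0233 and -1.97 with adjusted p = 0.00515. For CPK4 it was -1.71 (adjusted p = 0.535) at 180 min and -1.60 (adjusted p = 0.187) at 300 min, or -1.71 (0.162) and -1.56 (0.172) without them. For CPK28 it was -2.47 (adjusted p = 0.851) and -2.07 (adjusted p = 0.389) at these times, or -2.48 (0.158) and -2.01 (0.269) without them.

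**Figure D4:**
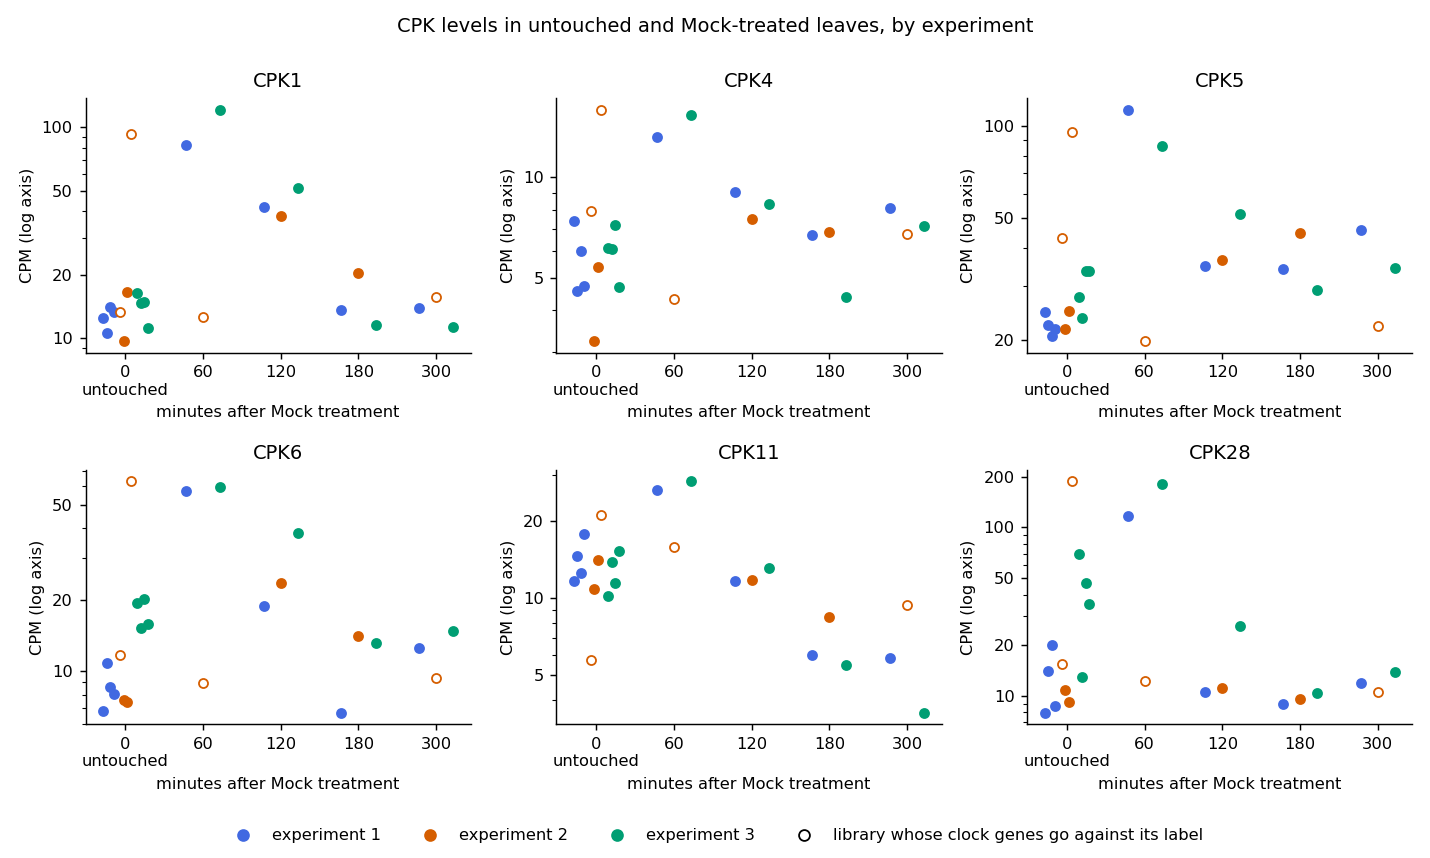
Levels in CPM on a log axis in Mock leaves at 60, 120, 180 and 300 min and in the 12 untouched libraries, by experiment, with open symbols for the 4 libraries that stood apart. For CPK28 the Mock 60 min libraries of experiments 1 and 3 stand at 118 and 180 CPM, above all but 1 of the untouched libraries, while that of experiment 2 stands at 12.2 CPM.

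Mock leaves differed from untouched leaves at 60 min. In them CPK1, CPK5, CPK6, CPK11 and CPK28 were higher than in the 12 untouched libraries, with log2 changes of 2.02 ± 0.33 (adjusted p = 7.24e-05), 1.22 (0.00523), 1.50 (0.00445), 0.87 (0.00844) and 1.81 ± 0.48 (0.00955). For CPK4 the log2 change was 0.74 with adjusted p = 0.195. CPK28 had 118, 12.2 and 180 CPM in Mock leaves at 60 min, against 7.94 to 188 CPM with a median of 14.8 CPM in untouched leaves. CPK1 had 82.7, 12.6 and 121 CPM in Mock leaves, against 9.67 to 92.8 CPM with a median of 13.7 CPM in untouched leaves. With the 4 libraries included the groups overlapped in all 24 such comparisons, and the share of all genes that overlapped is not given. The highest untouched values of both genes came from the library labelled Mock 0 min of experiment 2, and the lowest Mock values those of the library labelled Mock 60 min of the same experiment.

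Without the 4 libraries that stood apart, all 6 genes rose at 60 min, by 2.89 for CPK1 (adjusted p = 1.2e-14), 2.69 for CPK28 (adjusted p = 1.06e-06), 2.28 for CPK6, 1.93 for CPK5, 1.32 for CPK4 (adjusted p = 0.00366) and 1.01 for CPK11. Untouched CPK1 then lay between 9.67 and 16.6 CPM in 10 libraries, against 82.7 and 121 CPM in the remaining Mock libraries at 60 min. The untouched CPK28 values still reached 69.5 CPM in the library labelled flg22 0 min of experiment 3, with 35.2 and 47.1 CPM in those labelled Mock 0 min and flg22+Ed 0 min of that experiment. With all libraries, limma-voom called 2 of 6 at 60 min.

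At later times CPK1 was still higher in Mock leaves at 120 min, with 41.9, 38.0 and 51.6 CPM and a log2 change of 1.3 ± 0.35 against untouched leaves (adjusted p = 0.00564). CPK11 went the other way and fell by 0.92 at 180 min (adjusted p = 0.0145) and by 0.98 at 300 min (adjusted p = 0.022), with 6.01, 8.44 and 5.47 CPM in Mock leaves at 180 min, against 5.73 to 21.1 CPM with a median of 13.2 CPM in untouched leaves. The counts over the 6 were 5, 1, 1 and 1 at 60, 120, 180 and 300 min, against 9.46%, 20.6%, 14.3% and 4.94% of all genes called in either direction. Without the 4 libraries they were 6, 3, 2 and 1, with CPK5 (0.64, adjusted p = 0.0229) and CPK6 (1.13, adjusted p = 0.00172) added at 120 min and CPK28 (-1.23, adjusted p = 0.0474) at 180 min. In that fit 5875, 6003, 4779 and 4951 of all genes tested were called in either direction. The falls of CPK11 were then -0.97 and -1.47. These comparisons also span the time of day, and infiltration and the hour cannot be told apart in them. Of the 8 calls, the 2 of CPK1 were lost without the Mock library of experiment 3, and each of the other 6 without that of experiment 1 or of experiment 3.

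Ordered by mean over the 20 groups, CPK1, CPK5, CPK11 and CPK28 were highest in flg22 leaves at 60 min (141, 122, 33.3 and 408 CPM), CPK4 in flg22+Ed leaves at 300 min (66.2 CPM) and CPK6 in flg22+Ed leaves at 120 min (74.4 CPM). Untouched leaves labelled Ed 0 min were lowest for CPK1 (11.6 CPM), CPK4 (4.63 CPM), CPK5 (22.5 CPM) and CPK6 (11.2 CPM), Ed leaves at 180 min for CPK11 (5.55 CPM) and Mock leaves at 180 min for CPK28 (9.68 CPM). Neighbours in the order mostly overlapped. Of the 19 neighbouring pairs of groups, 0 were separate in their 3 libraries for CPK1, CPK4, CPK5 and CPK6, 1 for CPK11 and 2 for CPK28, among them flg22+Ed at 60 min (403 CPM) above Ed at 60 min (183 CPM).

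Across the 20 group means, on log2 CPM, CPK5 and CPK6 followed each other most closely of the member pairs (r = 0.955), then CPK1 and CPK6 (r = 0.942). The lowest value was that of CPK4 and CPK11 (r = 0.0922), the pair with the most similar coding sequences. These correlations describe 20 groups that share experiments and time of day. Among 15272 genes compared over the same 20 groups, the 3 most like CPK28 were ACA1, a calcium pump (r = 0.976), AT1G74440 (0.967) and PUP18 (0.965). Those most like CPK1 were AT1G19380 (0.970), CK1 (0.969) and the calmodulin gene CAM2 (0.969), and those most like CPK4 were AT2G18690 (0.983), PCR2 (0.983) and AT3G26020 (0.979). CPK5 was followed most closely by AT1G76700 (0.989), VPS2.1 (0.984) and AT3G14840 (0.973), CPK6 by ABCB21 (0.982), ERD6 (0.980) and OPR1 (0.969), and CPK11, less closely, by AT3G52950 (0.925), PSY1R (0.918) and ERF73 (0.911).

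**Figure D5:**
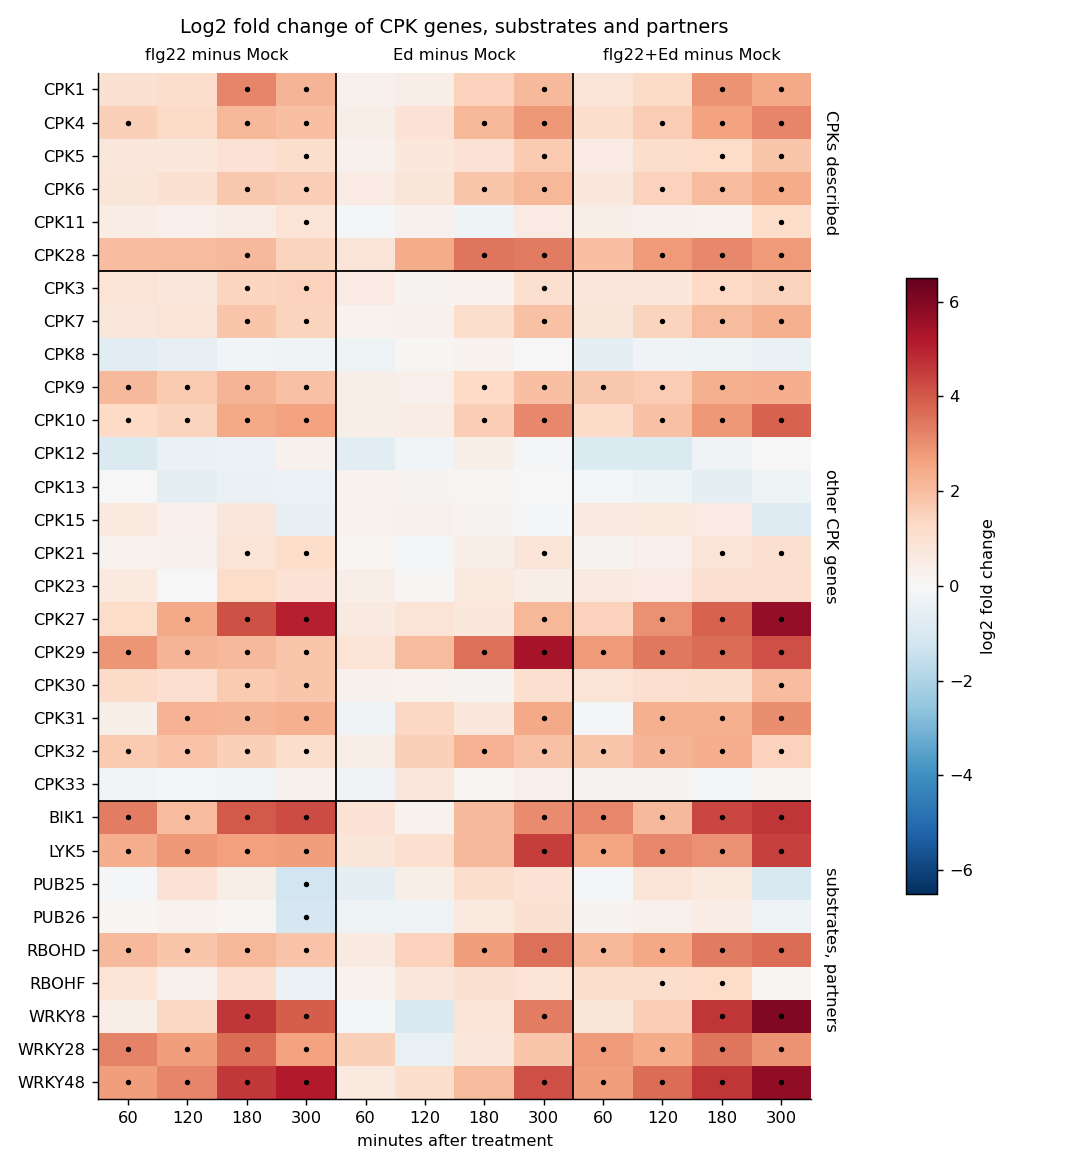
Log2 fold changes against Mock as a heat map for the 6 tested members, 16 other tested CPK genes and 9 tested substrates or partners (rows), for flg22, Ed and flg22+Ed at 60, 120, 180 and 300 min (columns), with a dot where the adjusted p was under 0.05. CPK27 is strongest under flg22 and flg22+Ed, CPK29 under Ed, and PUB25 and PUB26 are below 0 under flg22 at 300 min.

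The rest of the family gives the setting for these values. Of 27 other CPK genes, 26 were in the table and 16 were tested. Of these 16, flg22 raised 4, 6, 10 and 10 at 60, 120, 180 and 300 min, Ed raised 0, 0, 4 and 9, and flg22+Ed raised 3, 7, 9 and 10, and none fell. Over all genes the shares called higher were 6.45%, 7.43%, 14.0% and 19.2% under flg22, 0.00597%, 0.0835%, 4.03% and 14.7% under Ed, and 4.75%, 9.97%, 18.0% and 27.9% under flg22+Ed. At 300 min CPK8, CPK12, CPK13, CPK15, CPK23 and CPK33 passed in none of the 3 treatments.

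Of the 4 with the largest changes, CPK27 averaged 44.9 ± 11.4 CPM in flg22 leaves, 6.14 ± 5.38 CPM in Ed leaves and 71.0 ± 8.85 CPM in flg22+Ed leaves at 300 min, and 1.29 ± 0.340 CPM in Mock leaves (SD, n = 3 each). Its log2 change was 5.70 under flg22+Ed (adjusted p = 1.2e-11), and it was lower in Ed than in flg22 leaves by -2.87 (adjusted p = 2.75e-06). CPK29 went the other way, with 10.7 ± 4.78 CPM in flg22 leaves, 130 ± 47.0 CPM in Ed leaves and 2.96 ± 1.10 CPM in Mock leaves at 300 min. Its Ed leaves exceeded its flg22 leaves by a log2 difference of 3.59 (adjusted p = 1.3e-06), the same direction as CPK28. CPK10 averaged 184 ± 15.2 CPM in flg22+Ed leaves and 13.0 ± 1.83 CPM in Mock leaves at 300 min (log2 change 3.84, adjusted p = 1.57e-09), and CPK31 23.2 ± 2.72 CPM and 2.83 ± 0.409 CPM (log2 change 3.03, adjusted p = 2.42e-06).

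The substrates and partners of the members form the other list, of which 9 of 10 were tested. They rose under flg22 for 5, 5, 6 and 6 of 9 at 60, 120, 180 and 300 min, under Ed for 0, 0, 1 and 5, and under flg22+Ed for 5, 6, 7 and 6. The shares of all genes are those given for the CPK family. The Ed calls over the 4 times numbered 6, or 10 with the experiment as a block. WRKY8, a substrate of CPK4, CPK5, CPK6 and CPK11, averaged 85.3 ± 21.8 CPM in flg22+Ed leaves and 1.57 ± 1.73 CPM in Mock leaves at 300 min (SD, n = 3 each; log2 change 6.0, adjusted p = 1.42e-10). WRKY48, another substrate, averaged 226 ± 38.1 CPM in flg22+Ed leaves and 4.47 ± 4.48 CPM in Mock leaves (log2 change 5.78, adjusted p = 6.84e-06).

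BIK1, the kinase whose turnover CPK28 promotes, averaged 176 ± 15.0 CPM in flg22+Ed leaves and 7.34 ± 5.91 CPM in Mock leaves at 300 min (log2 change 4.66, adjusted p = 6.63e-07). PUB25 and PUB26, the ligases of the same route, fell under flg22 at 300 min. PUB25 averaged 7.47 ± 1.03 CPM in flg22 leaves and 17.8 ± 3.35 CPM in Mock leaves (log2 change -1.24, adjusted p = 0.0217). PUB26 averaged 5.56 ± 1.53 CPM in flg22 leaves and 12.1 ± 4.20 CPM in Mock leaves (log2 change -1.11, adjusted p = 0.0388). In Ed leaves both were higher than in flg22 leaves at 300 min, by 2.15 (adjusted p = 0.000271) and 2.1 (adjusted p = 0.000293) on the log2 scale, as CPK28 was. With these 2 included, 5 of the 9 tested substrates and partners were higher in that comparison, against 9.91% of all genes tested. The direction was thus not particular to this route.

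LYK5, a chitin receptor kinase that CPK5 is known to phosphorylate, averaged 64.0 ± 27.3 CPM in Ed leaves and 2.90 ± 1.09 CPM in Mock leaves at 300 min (SD, n = 3 each; log2 change 4.52, adjusted p = 3.42e-05). RBOHD, the oxidase that CPK5 phosphorylates, was the sole member of this list called under Ed at 180 min (log2 change 2.70, adjusted p = 0.000889), and at 300 min its log2 change was 1.86 under flg22, 3.58 under Ed and 3.63 under flg22+Ed.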

How the data were processed

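Counts per gene of 60 Smart-3SEQ libraries were deposited by the authors as raw counts, 1 column per library. The kit puts a molecular identifier of 5 bases at the read start, per the labels' protocols. The submitters' processing notes name bcl2fastq 2.17.1.14 for demultiplexing, STAR 2.4.2a for alignment and the TAIR10 build, with 8 bases removed from each read. How tags were counted, with which annotation and strand, and whether identifiers were collapsed is not given in the sources used here. A count can therefore be a read or a molecule, and overlapping or antisense transcripts may add tags. Symbols for 24888 identifiers (99.4%) came from RefSeq TAIR10.1.

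The 7 genes and all lists were chosen with earlier results of these data known. Low counts were filtered with filterByExpr (edgeR 4.0.16, R 4.3.3), and library sizes were corrected by TMM (0.803 to 1.15). The quasi-likelihood F test was run with all 20 groups in 1 fit with 40 residual degrees of freedom and no block. Named besides the members were the 4 other CPK genes and 4 substrates with the largest absolute change against Mock among those called, and the 3 genes most correlated with each member over 20 group means of log2 CPM (prior count 2, at least 5 CPM in 1 group). PUB25, PUB26 and RBOHD, and the CPK genes listed as passing in no treatment, were named outside this rule. The replicate numbers mark the 3 independent experiments, per the design text. Residuals of same-experiment libraries correlated at a median of 0.108, against -0.0732 between experiments, with 37 of 72 pairs above 0.1. The p values rest on the spread of libraries within groups, each library from another experiment, estimated over all 20 groups. Without a block they leave out the pairing of libraries by experiment. They do not measure how a treatment effect varied between experiments. Each of the 60 libraries differed from every other.

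The fits were repeated with DESeq2 1.42.0, limma-voom (limma 3.58.1), the experiment as a replicate block, RLE factors, unscaled library sizes, no filter, a filter at 10 CPM in 3 samples, the compared groups alone, each library or experiment left out, the fit without the 4 libraries that stood apart in clock genes and, added after the data were seen, the fit without the untouched libraries of experiment 3. Clock gene correlations were Pearson's on log2 CPM over 12 genes. Coding sequences and promoters were read from RefSeq TAIR10.1, and protein sequences were not used here. The promoter window of CPK4 is not reported here.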

Additional observations from a re-analysis of the deposited data

Results flagged for a closer look

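In the cases below every experiment moved 1 way at 1 time and the opposite way at another. The differences between times were not tested, and values are log2 differences.

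For Ed minus flg22, CPK28 stood at -1.16 at 60 min, 1.41 at 180 min and 1.92 at 300 min. CPK4 stood at -1.13 at 60 min and 0.89 at 300 min, CPK5 at -0.48 and 0.57, and CPK6 at -0.29 and 0.56 at the same times. Of these only that of CPK28 at 300 min passed its own test.

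For flg22+Ed minus Ed, CPK28 stood at 1.14 at 60 min, 0.38 at 120 min and -0.60 at 300 min. For flg22+Ed minus flg22, CPK1 stood at -0.12 at 60 min and 0.25 at 300 min. None of these passed its own test.

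For Mock minus untouched, CPK11 stood at 0.87 at 60 min, -0.92 at 180 min and -0.98 at 300 min, and each of these passed its own test. CPK6 stood at 0.82 at 120 min and -0.41 at 180 min, and neither passed. In experiment 2 this rests on the untouched library labelled Mock 0 min, which stood apart in clock genes. Without the 4 such libraries CPK6 stood at 1.13 at 120 min, which passed (adjusted p = 0.00172), and at -0.09 at 180 min.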

How the results depend on the processing

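Over 8 comparisons, 4 times and 6 tested genes there were 192 member results, of which 44 were called. No result reversed in direction where it was called in the main fit or in the setting run. Uncalled results could change sign, as CPK1 did for Ed minus Mock at 60 min (0.28, or -0.22 without the 4 libraries). Of the 44 calls, 15 held in every setting, 21 held with any single library left out, and 40 were also made by both DESeq2 and limma-voom. With an experiment or a library left out, the number of member calls over the 4 times was 6 to 12 for flg22 minus Mock (10 with all libraries), 2 to 10 for Ed minus Mock (8), 10 to 17 for flg22+Ed minus Mock (14), 0 to 1 for flg22+Ed minus flg22 (1), 0 to 2 for flg22+Ed minus Ed (1), 0 to 3 for Ed minus flg22 (2), 0 to 0 for the interaction (0) and 0 to 10 for Mock minus untouched (8). The lowest counts of the first 2 came without experiment 1. With only the groups compared in the fit, the counts were 4 for flg22+Ed minus flg22, 3 for flg22+Ed minus Ed, 4 for Ed minus flg22, 6 for the interaction and 1 for Mock minus untouched. Without the 4 libraries that stood apart in clock genes they were 3 for flg22+Ed minus Ed, 5 for Ed minus flg22 and 2 for the interaction. limma-voom called 5 for Mock minus untouched, and library sizes alone gave 1 for Ed minus flg22. The causes were not tested. With the experiment as a replicate block the counts were 13 for flg22 minus Mock, 8 for Ed minus Mock and 15 for flg22+Ed minus Mock, and the block changed no member call other than the 4 given with the results. Without the untouched libraries of experiment 3, a setting chosen after the data were seen, 5 results gained a call, among them CPK28 at 60 min under flg22 (2.00, adjusted p = 0.0272). Depth limits CPK2, with 176 counts in all, and 3 libraries per group limit the rest.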

Other observations

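CPK27 and CPK29, both outside the 7 genes, had the largest changes of the tested family, and they differed between the elicitors at more than 1 time. CPK27 was lower in Ed than in flg22 leaves at 180 min, with a log2 difference of -3.44 (adjusted p = 3.35e-07, edgeR). CPK29 was lower in Ed than in flg22 leaves at 60 min, with a log2 difference of -2.00 (adjusted p = 0.0176), and higher at 180 min, with 1.48 (adjusted p = 0.0462). The change between times was not tested.

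PAD4 carries the pad4 mutation in every plant, and its 3′ tags still rose, by 4.19 on the log2 scale in Ed leaves and by 4.97 in flg22+Ed leaves relative to Mock leaves at 180 min.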
